A study of Oryza sativa with 9 samples.

Results

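Transcripts of 83 rice loci, out of 31263 in the deposited table, were at a low level in both a Tudor-SN mutant and its complemented line. They were chosen by their group means in that table. A member had a mean of at least 10 RPKM (reads scaled to transcript length and library size) in wild type, a mean in each of the other lines of at most 0.5 times that of wild type, and a complemented mean under 2 times the EM1084 mean. Loci in 5 stretches of storage protein and Rab16 genes, recognised by the start of their identifier, were left out. Every one of the 9 libraries was used to choose the members, so their low levels are a description of the choice and carry no test.

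RNA came from dehulled seeds of rice (Oryza sativa) collected 10 to 14 days after flowering, with plants kept in growth chambers at 27 °C under 12 h of light and 12 h of darkness. The 3 genotypes had 3 biological repeats each. Wild type (WT) carried no labelled change. EM1084 was a line whose Tudor-SN protein carried the substitution E503K. The line pHL8042/EM1084 was EM1084 carrying a transgene with the wild type OsTSN sequence, and is called the complemented line below. All plants labelled EM1084 and pHL8042/EM1084 therefore had the EM1084 genome in common. The labels name neither the promoter of the transgene nor the number of transgenic events, and any further difference between EM1084 and wild type cannot be told apart from the substitution for a transcript that is low in both lines.

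Tudor-SN is an RNA-binding protein with staphylococcal nuclease-like domains and a Tudor domain. In rice endosperm, the starch-storing tissue of the seed, it is known for its part in sorting storage protein messages to regions of the endoplasmic reticulum where prolamins or glutelins are made. A complementation experiment returns a normal copy of a gene to a mutant, and transcripts that go back towards the wild type level are usually called restored.

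Mapped totals, recovered from the whole-read steps of the RPKM values, were 5778627 to 10551055 reads in wild type, 12805472 to 15630870 in EM1084 and 17022681 to 18449248 in complemented seeds. For a 1 kb transcript a single read stood for 0.0542 to 0.173 RPKM, the coarsest step being in WT 3. The level of OsTudor-SN (LOC_Os02g32350) was 92.3 ± 4.73 RPKM in wild type, 213 ± 7.51 in EM1084 and 368 ± 20.3 in complemented seeds (SD, n = 3), which does not check a substitution and does not tell the transgene from the mutant copy. RPKM divides by the mapped total, and over the 15450 loci tested with limma the median log2 difference from wild type was 1.06 in EM1084 and 0.73 in complemented seeds. These medians were 0.07 and 0.08 after scaling by the median of ratios.

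Of 2883 loci with at least 10 RPKM in wild type, 207 were at most 0.5 times wild type in EM1084 and 242 in complemented seeds. Both conditions held at 126 loci. At 32 of these the complemented mean was at least 2 times the EM1084 mean, and at 94 it was not. Taking out 11 loci of the 5 stretches left the 83 members. A further 81 loci were at or below 0.5 times wild type in EM1084 alone, and 116 in complemented seeds alone.

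**Figure D1:**
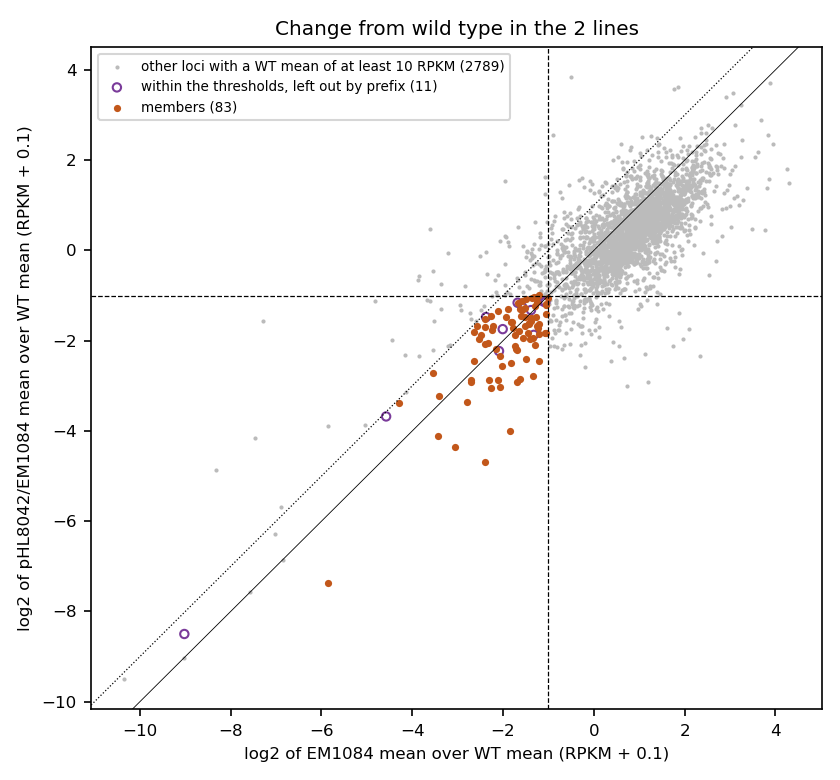
Each point is a locus with at least 10 RPKM in wild type. The horizontal axis is the log2 ratio of the EM1084 mean to the wild type mean and the vertical axis that of the complemented mean, both with 0.1 RPKM added. Dashed lines mark 0.5 times wild type, the dotted line a complemented mean 2 times that of EM1084, and the solid line equal means. The 83 members fill the lower left corner below the dotted line, next to the 11 loci left out by identifier, and scatter on both sides of the solid line.

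The members covered a wide range of wild type levels, from 10.1 to 8734 RPKM with a median of 44.4. In wild type, 5 of them reached at least 1000 RPKM, 21 reached at least 100, and 18 lay under 20. In EM1084 their means stood at 1.13% to 49.1% of wild type, with a median of 30.9%. In the complemented line they stood at 0% to 49.9%, with a median of 28.5%. At 20 members both lines were under 25% of wild type, at 11 under 20% and at 3 under 10%. The RNA was taken from whole dehulled seeds, so fewer cells of a type and less RNA per cell cannot be told apart at any of these loci.

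In the limma test across all loci, 80 of the 83 members were called lower in EM1084 than in wild type (adjusted p under 0.05; background 5.33% of loci tested). The number called lower in the complemented line was 81 (background 7.37%). Both comparisons use the same 3 wild type libraries, and the rule used both contrasts, so nothing is read from these shares. At 80 members all 6 libraries of the lines lay below all 3 wild type libraries (background 3.5%). Median log2 differences over the members were -1.63 for EM1084 and -1.66 for the complemented line. After scaling by the median of ratios, they were -2.87 and -2.58. All 83 members kept values below 0 in both comparisons under each of the 3 other scalings tried. The members were chosen for low values in these same libraries, so this is no separate support. The median of ratios also moved both lines further down against wild type.

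Together the members took 3.04% to 9.61% of mapped reads in wild type, 0.946% to 2.28% in EM1084 and 1.07% to 1.51% in complemented seeds. A pair of loci at the start of chromosome 9 made up most of the spread. Without that pair the share was 1.69% to 1.82% in wild type, 0.498% to 0.526% in EM1084 and 0.532% to 0.552% in complemented seeds. For this summed share of the remaining 81 members, the 3 wild type libraries lay above all 6 others. That order follows largely from how the members were chosen. Single members could differ from the summed share, as LOC_Os03g57990 did.

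The members with the highest wild type level come first, because they account for most of these reads. The table pairs no locus with a name, and none of its identifiers occurs in the RefSeq gene table used here. Loci therefore carry their identifier alone, except those on gene lists written from general knowledge of the rice literature. Positions are those printed in the deposited table, which names no genome build.

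LOC_Os02g48480 (chromosome 2, 29677821 to 29678633, plus strand) had the highest level among members whose 3 wild type libraries were alike. Its RPKM was 3154, 2809 and 2679 in wild type, 824, 862 and 755 in EM1084, and 566, 509 and 462 in complemented seeds. The 3 genotypes did not overlap, with wild type highest and the complemented line lowest. The EM1084 mean was 28.2% of wild type and the complemented mean 17.8%.

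LOC_Os06g30970 (chromosome 6, 18015320 to 18017697, minus strand) had 2362, 2408 and 2257 RPKM in wild type, 737, 738 and 745 in EM1084, and 930, 1120 and 1097 in complemented seeds. LOC_Os06g41010 (chromosome 6, 24491979 to 24494238, plus strand) had 2017, 2110 and 1899 RPKM in wild type, 299, 362 and 311 in EM1084, and 649, 532 and 538 in complemented seeds. Here the order of the lines was the other way round, with every complemented library above every EM1084 library at both loci. The complemented mean was 44.8% of wild type at the first locus and 28.5% at the second.

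LOC_Os01g09510 (chromosome 1, 4852430 to 4854566, plus strand) had 982, 977 and 960 RPKM in wild type, 275, 276 and 352 in EM1084, and 124, 133 and 128 in complemented seeds. The complemented line was the lower of the 2 lines again, at 13.2% of wild type against 30.9% in EM1084. LOC_Os06g46284 (chromosome 6, 28045147 to 28058082, minus strand), the longest member transcript at 3720 bases, had 532, 508 and 504 RPKM in wild type, 195, 240 and 194 in EM1084, and 210, 232 and 211 in complemented seeds. LOC_Os06g06520 (chromosome 6, 3057016 to 3059017, minus strand) had 375, 383 and 326 RPKM in wild type, 132, 124 and 125 in EM1084, and 102, 120 and 118 in complemented seeds. At the last pair of loci the EM1084 and complemented libraries lay close together, and at LOC_Os06g46284 they overlapped.

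LOC_Os07g33898 (chromosome 7, 20273588 to 20275840, plus strand) had the smallest remaining share among the 10 highest members. It had 479, 506 and 456 RPKM in wild type, 49.2, 42.1 and 42.2 in EM1084, and 20.9, 38 and 23.5 in complemented seeds. The wild type mean was 10.8 times that of EM1084 and 17.5 times that of the complemented line. On the same strand, LOC_Os07g33997 was listed at 0 in all 3 wild type libraries and at 616 ± 9.68 RPKM in EM1084 and 358 ± 33.1 in complemented seeds (SD, n = 3), 34194 bases further on. It was chosen for mention after its values were seen. Whether reads of the one locus can be assigned to the other was not tested, since no sequence of either locus was used here.

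**Figure D2:**
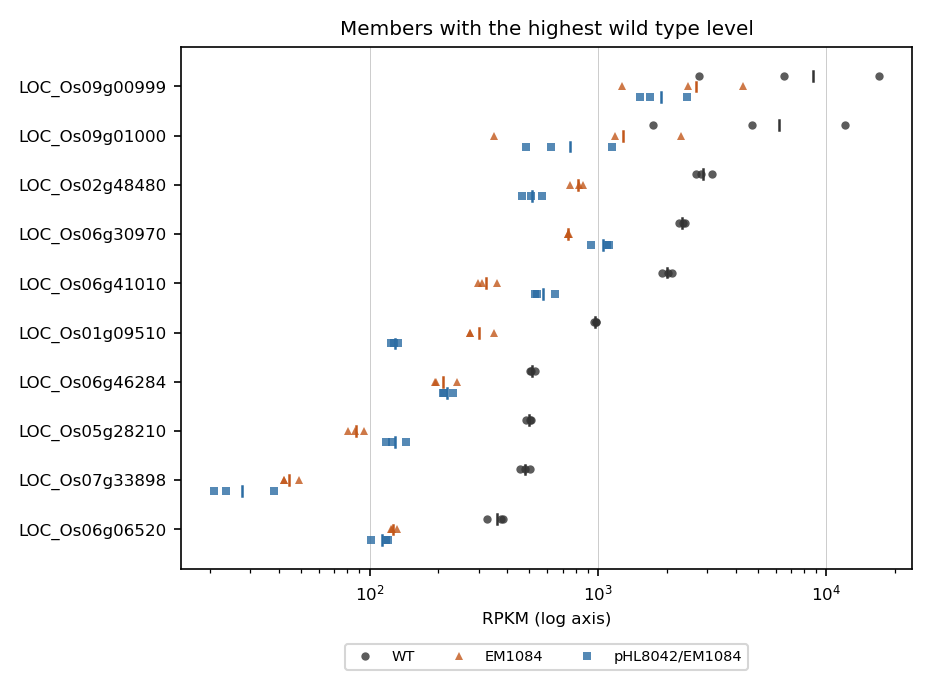
RPKM on a log axis in each library for the 10 members with the highest wild type mean, with circles for wild type, triangles for EM1084, squares for the complemented line and a vertical bar for each mean of 3 libraries. At 8 of the 10 loci the wild type libraries lie together above all others. At the first pair, LOC_Os09g00999 and LOC_Os09g01000, wild type libraries spread over much of the axis and overlap with EM1084.

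The pair of members at the start of chromosome 9 had the highest wild type means of all and the least uniform ones. LOC_Os09g00999 (2874 to 5458, plus strand) had 6493, 2768 and 16940 RPKM in wild type, 4296, 2486 and 1271 in EM1084, and 1534, 1685 and 2460 in complemented seeds. LOC_Os09g01000 (6384 to 9310, plus strand), 925 bases further along, had 4725, 1740 and 12111 RPKM in wild type, 2301, 1188 and 350 in EM1084, and 484, 620 and 1154 in complemented seeds. At both loci WT 3 was the highest and WT 2 the lowest wild type library, and the genotypes overlapped. Without WT 3, LOC_Os09g00999 stood at 58.0% of wild type in EM1084 and 40.9% in complemented seeds, which no longer meets the definition. LOC_Os09g01000 stood at 39.6% and 23.3%. Neither locus was called in EM1084, and LOC_Os09g01000 was called in the complemented line. The next locus in the table started 102287 bases further on, and its wild type mean was 0.00813 RPKM.

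Libraries of the genotypes also overlapped at LOC_Os03g57990 (chromosome 3, 33028009 to 33029181), which was picked out after its values were seen. It had 69.5, 57.7 and 322 RPKM in wild type, 29.8, 32.7 and 32.5 in EM1084, and 30.9, 42.7 and 59.5 in complemented seeds. WT 3 again stood far above the other wild type libraries. Without it the complemented mean was 69.7% of wild type and the EM1084 mean 49.8%, so this locus also fell outside the definition. Over all members the coefficient of variation of the wild type libraries had a median of 9.24%, against 8.87% over all loci with at least 10 RPKM in wild type.

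The members lowest in both lines were mostly of moderate wild type level. LOC_Os07g07719 (chromosome 7, 3883541 to 3885517, plus strand) had 15.4, 19.7 and 14.2 RPKM in wild type, from 218 reads in all. In EM1084 it had 0.306, 0 and 0.25 RPKM, from 4 reads, and it was listed at 0 in all 3 complemented libraries. If reads are independent, a count of 0 allows up to 3 reads over the group, or 0.11 RPKM. On that assumption the wild type mean was at least 149.8-fold higher than the complemented line. Such limits cover counting error only. Among values of 1 to 20 reads, 58.6% to 72.4% were even numbers, depending on the library. Whether reads were counted in pairs was not tested, and the fold limit would be smaller if they were. Of the 4 loci on each side of it, 5 had a mean under 1 RPKM in every genotype and allow no comparison. LOC_Os07g07709, 8463 bases before it, had means of 35.4 RPKM in wild type, 121 in EM1084 and 72.3 in complemented seeds.

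LOC_Os02g49710 (chromosome 2) had 16.4, 14.8 and 16.8 RPKM in wild type, 0.375, 0.871 and 0.922 in EM1084, and 1.33, 1.43 and 1.55 in complemented seeds. Every complemented library exceeded every EM1084 library, yet the complemented mean was 8.98% of wild type. LOC_Os03g06170 (chromosome 3) had 61.7, 94.5 and 81.7 RPKM in wild type, 7.85, 7.66 and 6.74 in EM1084, and 7.64, 9.99 and 7.41 in complemented seeds. LOC_Os04g37760 (chromosome 4) had 114, 118 and 93.7 RPKM in wild type, 18.6, 13.2 and 14.6 in EM1084, and 10.3, 11.3 and 10 in complemented seeds. At the last of these the complemented line was the lower, and at LOC_Os03g06170 the lines overlapped.

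LOC_Os01g45360 (chromosome 1) had 33.6, 33.4 and 25.6 RPKM in wild type, 2.34, 2.76 and 2.6 in EM1084, and 3.46, 5.34 and 5.12 in complemented seeds. LOC_Os12g17804 (chromosome 12) had 108, 112 and 114 RPKM in wild type, 15.2, 22.5 and 13.7 in EM1084, and 18.4, 16.5 and 10.9 in complemented seeds. LOC_Os02g07628 (chromosome 2), with a transcript of only 282 bases, had 23.5, 22.2 and 20.3 RPKM in wild type, 1.38, 4.44 and 1.81 in EM1084, and 1.96, 0.577 and 0.417 in complemented seeds. The complemented libraries were above EM1084 at the first of these, and the lines overlapped at the other loci. The remaining 2 of the 10 lowest members had means of 58.4, 9.31 and 10.6 RPKM (LOC_Os07g17330) and of 11.3, 1.65 and 1.43 RPKM (LOC_Os06g08990), given for wild type, then EM1084, then the complemented line.

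**Figure D3:**
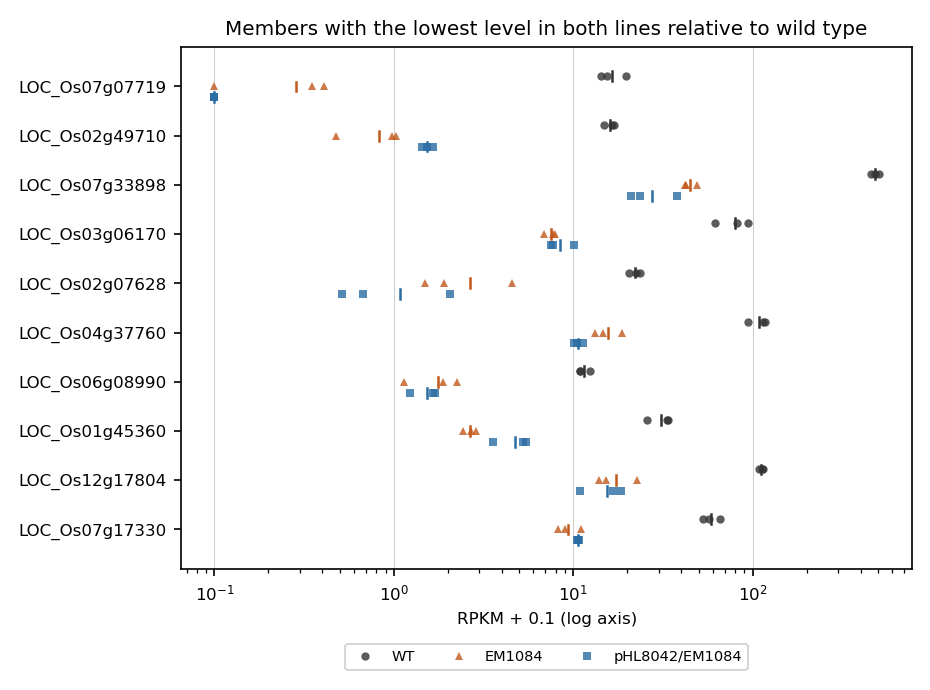
RPKM with 0.1 added, on a log axis, in each library for the 10 members with the smallest share of wild type left in the higher of the 2 lines; symbols are as for the highest members. All wild type libraries lie to the right of all others at each locus, and LOC_Os07g07719 is at 0 in 4 of the 6 libraries of the lines.

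How far the complemented line went back towards wild type, or moved further from it, differed among the members. The ratio of the complemented to the EM1084 mean ran from 0 to 1.99 with a median of 0.902, and the middle 50% of members lay between 0.682 and 1.21. The complemented mean was below the EM1084 mean at 48 members and above it at 35. At 27 members all 3 complemented libraries were below all EM1084 libraries, at 20 they were all above, and at 36 they overlapped. The same split over all loci was not counted. Over all loci tested, the median log2 difference of the complemented line from EM1084 was -0.34. No lean of the members is therefore read from these counts. In limma, 24 members were called lower in the complemented line than in EM1084 (background 45.3%) and 18 higher (background 10.2%). With libraries scaled by the median of ratios, 7 were called lower (background 19%) and 36 higher (background 18.7%). Quantile normalization gave 8 lower (background 18.9%) and 39 higher (background 19.5%). The total outside storage protein loci gave 10 lower (background 23.4%) and 31 higher (background 15.9%). Which direction held more of the called members therefore depended on the scaling. The median log2 difference over the members lay above that over all loci tested under all 4 scalings. It was -0.13 against -0.34 as deposited and 0.25 against -0.005 under the median of ratios. Quantile normalization gave 0.28 against -0.002, and the total outside storage protein loci 0.16 against -0.08. The upper bound of 2 was set by the definition, so the counts and medians describe what lies under it. The definition also capped the mean of each line against wild type, in these same libraries. All loci tested include those that do not meet these caps or the wild type minimum. The gap between the medians is therefore a description of the chosen members, and no lean is read from it.

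The member with the lowest ratio among those detected in both lines was LOC_Os06g48160 (chromosome 6, 29133001 to 29134771, plus strand). It had 97.9, 98.8 and 88 RPKM in wild type, 16.5, 17.6 and 19.4 in EM1084, and 2.89, 4.33 and 3.53 in complemented seeds. The EM1084 mean was 4.98 times the complemented mean, and no library of the one line overlapped with the other. LOC_Os02g47370 (chromosome 2) was next, with 74.6, 73.4 and 67.3 RPKM in wild type, 19.6, 17.4 and 23 in EM1084, and 2.68, 5.33 and 5.12 in complemented seeds. These loci were singled out after their values were seen, as the member below them in the order, LOC_Os07g07719, was at 0 in complemented seeds.

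At the other end, LOC_Os02g49710 had a ratio of 1.99, LOC_Os01g22230 of 1.90 and LOC_Os03g07180 of 1.86. LOC_Os03g07180 (chromosome 3) had 83.1, 89.4 and 75.1 RPKM in wild type, 13.7, 15.4 and 17.6 in EM1084, and 28.6, 30.7 and 27.5 in complemented seeds. It rose in the complemented line without reaching 0.5 times wild type, and it was called higher than in EM1084 under each of the 3 other scalings too. The nearest loci outside this bound were LOC_Os07g06830 and LOC_Os11g42170, with ratios of 2.14 and 2.15.

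**Figure D4:**
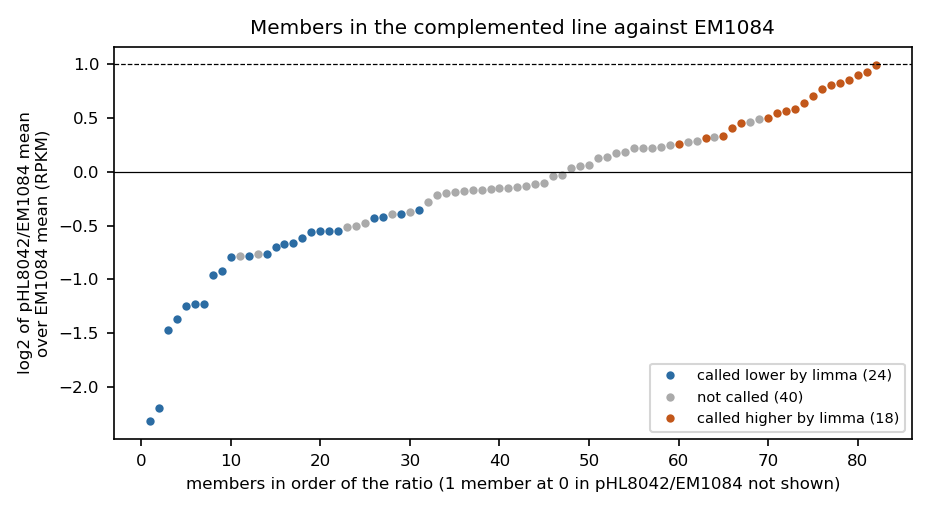
Members in order of the log2 ratio of the complemented to the EM1084 mean, on the deposited RPKM. Colours give the limma call, with 24 members lower in the complemented line, 18 higher and 40 not called; the member at 0 in complemented seeds is not drawn. The solid line marks equal means and the dashed line the bound of 2 times EM1084 set by the definition. The values run without a break from below to above the solid line.

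The other thresholds also cut through a continuous range. The wild type mean was 10.1 RPKM at the member nearest that limit, LOC_Os04g50780, and 9.80 at the nearest locus outside, LOC_Os09g10300. The ratio of EM1084 to wild type was 0.491 at LOC_Os10g41250 inside and 0.505 at LOC_Os11g09180 outside. That of the complemented line to wild type was 0.499 at LOC_Os03g03410 inside and 0.501 at LOC_Os07g42250 outside. The remaining loci next to a limit had wild type means of 10.8 and 11.1 RPKM inside and 9.17 and 9.12 outside, EM1084 ratios of 0.482 inside and of 0.505 and 0.513 outside, and complemented ratios of 0.487 and 0.485 inside and of 0.503 and 0.509 outside.

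Of the members, 2 were on the gene lists. LOC_Os05g28210 (chromosome 5, 16518574 to 16519496, minus strand), listed as the Em gene, encodes a late embryogenesis abundant protein, a class of hydrophilic proteins made in the embryo as the seed matures and dries. It had 510, 486 and 503 RPKM in wild type, 86.6, 80.2 and 94.7 in EM1084, and 144, 117 and 125 in complemented seeds. The 3 genotypes did not overlap, and the wild type mean was 5.74 times that of EM1084 and 3.88 times that of the complemented line. The complemented mean was 1.48 times the EM1084 mean.

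Em was on a list of 10 embryo and aleurone genes, the aleurone being the outer living layer of the endosperm. Of these, 8 passed the filter on low values, and 4 were called lower and 4 higher than wild type in EM1084. The same numbers were called in the complemented line. Over all loci tested on the deposited scale, 5.33% were called lower and 82.7% higher in EM1084. In complemented seeds these shares were 7.37% and 72%. Under the median of ratios 6 were lower and 2 higher in EM1084, and 5 lower and 2 higher in the complemented line, of 9 loci tested. Over all loci that scaling gave 28% lower and 32% higher in EM1084, and 26.5% and 29.5% in complemented seeds. The summed level of the list was 1375 to 1506 RPKM in wild type, 1665 to 1980 in EM1084 and 1809 to 2246 in complemented seeds. These sums are on the deposited scale and were not computed under the other scalings. The median of ratios divides by 0.565 to 0.607 in wild type, 1.52 to 1.54 in EM1084 and 1.08 to 1.21 in complemented seeds. No direction is therefore read from the sums. No locus of the list was at 0 in all libraries of a genotype.

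The list also held 4 genes of the Rab16 cluster, which encode dehydrins, another class of proteins induced by drying and abscisic acid. LOC_Os11g26790 had means of 429 RPKM in wild type, 56.2 in EM1084 and 171 in complemented seeds. LOC_Os11g26780 had 236, 4 and 15.9 RPKM in the same order. LOC_Os11g26760 had 62.9, 2.54 and 4.82 RPKM, and met the thresholds of the definition but is among the loci left out. Under all 4 scalings these 3 genes and Em were called lower than wild type in both lines, and higher in the complemented line than in EM1084. The other Rab16 gene, LOC_Os11g26750, had 1.31, 0.147 and 0.643 RPKM and did not pass the filter on the deposited scale. Under the other scalings it was called lower than wild type in both lines, and its complemented level was called higher than EM1084 only with the total outside storage loci.

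Other genes of the list differed from that pattern. The oleosin genes, which encode proteins coating the oil bodies of embryo and aleurone, had means of 113 ± 9.79 RPKM in wild type, 643 ± 93.9 in EM1084 and 781 ± 104 in complemented seeds (LOC_Os04g46200), and of 66.5 ± 2.84, 986 ± 83.2 and 876 ± 149 RPKM (LOC_Os03g49190; SD, n = 3 throughout). Both were called higher than wild type in both lines under all 4 scalings. The LEA3 gene LOC_Os05g46480, another late embryogenesis abundant protein gene, had 52.1 RPKM in wild type, 74.9 in EM1084 and 107 in complemented seeds; its log2 difference of EM1084 from wild type was -0.85 under the median of ratios, -0.40 under quantile normalization and -0.18 with the total outside storage loci, where the deposited scale gave a higher level. VP1 (LOC_Os01g68370), a transcription factor of the abscisic acid response, was low throughout at 1.07, 3.81 and 3.01 RPKM, and OSH1 (LOC_Os03g51690), a homeobox gene of the embryonic shoot apex, lower still at 0.0956, 0.407 and 0.233 RPKM. The part of tissue make-up in the level of the Em gene was not tested.

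**Figure D5:**
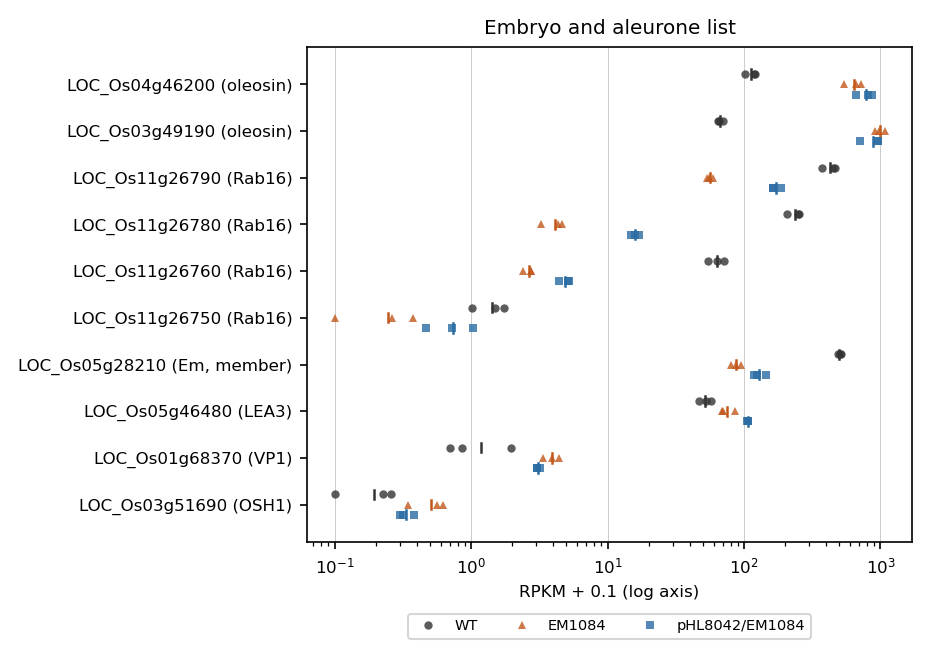
RPKM with 0.1 added, on a log axis, in each library for the 10 loci of the embryo and aleurone list; symbols are as for the highest members. The Em gene and the Rab16 genes lie higher in wild type than in EM1084, and the oleosin genes lie lower in wild type than in both lines.

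The second listed member was the prolamin gene LOC_Os12g16880 (chromosome 12, 9686915 to 9687610, plus strand). Prolamins are alcohol-soluble storage proteins of the endosperm. It had 43.7, 48.9 and 49 RPKM in wild type, 11.2, 12.9 and 14 in EM1084, and 17.1, 20.1 and 19.9 in complemented seeds, with no overlap between genotypes. Its listed neighbour LOC_Os12g16890, starting 1374 bases after its end, was far more abundant, with 10166 ± 597 RPKM in wild type, 6464 ± 226 in EM1084 and 4911 ± 214 in complemented seeds (SD, n = 3). Some prolamin genes are known to be close copies of each other, and whether reads of other loci contribute to the level of LOC_Os12g16880 was not tested, so its level is uncertain. Of the 6 prolamin loci outside the stretches left out, 3 were called lower and 3 higher in EM1084 than in wild type. In the complemented line 4 were called lower and 2 higher. On this deposited scale, 5.33% of all loci tested were called lower and 82.7% higher in EM1084. The shares in complemented seeds were 7.37% and 72%. Quantile normalization gave 1 lower and 3 higher in EM1084, and 2 and 2 in complemented seeds. Over all loci it gave 27% lower and 30.2% higher in EM1084, and 25.1% and 28.3% in complemented seeds. The median of ratios gave 4 prolamin loci lower and 1 higher in each line. Its shares over all loci were 28% and 32% in EM1084, and 26.5% and 29.5% in complemented seeds. With the total outside storage loci 4 were lower and 2 higher in each line. There the shares were 12.1% and 60% in EM1084, and 12.5% and 55.7% in complemented seeds.

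No member came from any of the other lists. Of the glutelins, LOC_Os02g15090 (means of 6506, 3106 and 2944 RPKM in wild type, EM1084 and the complemented line) and LOC_Os02g15178 (1124, 264 and 240 RPKM) met the thresholds but lie in a stretch left out by identifier. The other lists were 12 glutelins, 3 globulins, 18 starch synthesis genes, 4 sucrose synthases, 14 genes of protein folding in the endoplasmic reticulum, 6 endosperm transcription factors, 8 genes of green tissue, 6 alpha-amylases and 9 heat shock proteins. In EM1084 against wild type, the loci tested gave 8 glutelins, 1 globulin, 1 starch synthesis gene and 1 folding gene called lower, and 2 glutelins, 2 globulins, 11 starch synthesis genes and 11 folding genes called higher. Of the green tissue genes, which mark chlorophyll-bearing maternal layers, the summed level was 3.76 to 4.93 RPKM in wild type, 4.91 to 6.45 in EM1084 and 4.10 to 6.98 in complemented seeds. The summed level of the 2 alpha-amylases analysed was 0.972 to 2.48 RPKM in wild type, 7.52 to 8.95 in EM1084 and 3.81 to 5.82 in complemented seeds. The sums of the green tissue and alpha-amylase lists are on the deposited scale alone, and no direction is read from them. The heat shock list gave 6 loci called higher and 0 lower in EM1084, the sucrose synthases 3 and 0, and the endosperm transcription factors 5 and 0, where 82.7% of all loci tested were called higher and 5.33% lower. Several of these directions changed with the scaling. Under the median of ratios 13 starch synthesis genes were called lower and 2 higher in EM1084, 5 endosperm transcription factors lower and 1 higher, 2 sucrose synthases lower and 2 higher, and 3 heat shock genes lower and 5 higher, against 28% of all loci tested called lower and 32% higher. Glutelins called in EM1084 were 12 lower and 0 higher under the median of ratios, 11 and 1 with the total outside storage loci, and 2 and 8 under quantile normalization. Over all loci, the total outside storage loci gave 12.1% lower and 60% higher in EM1084, and 12.5% and 55.7% in complemented seeds.

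Members lay on all 12 chromosomes. Chromosome 6 held 14 of them (16.9% of members), against 8.12% of all loci with at least 10 RPKM in wild type. Chromosome 1 held 15 (18.1% against 14.5%) and chromosome 2 held 12 (14.5% against 11.9%), while chromosomes 10 and 11 held 1 each. On chromosome 2, which carries OsTudor-SN, 11 of the 12 members lay at higher coordinates than that gene, or 91.7%, against 173 of 342 loci with at least 10 RPKM in wild type, or 50.6%. The nearest, LOC_Os02g34510, lay 1.58 Mb away, and the only one at lower coordinates, LOC_Os02g07628, 15.1 Mb away. A glutelin stretch left out by the definition lies at the lower coordinates. These positions are a description, and whether they differ from those of other loci was not tested.

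The members were not arranged in long clusters. Of the 83, 4 (4.82%) were directly next to another member, namely LOC_Os09g00999 with LOC_Os09g01000 and LOC_Os09g09650 with LOC_Os09g09660. LOC_Os09g09650 had 97.8, 92.1 and 80.6 RPKM in wild type, 35.5, 38.9 and 34.2 in EM1084, and 51.2, 44.4 and 36 in complemented seeds. LOC_Os09g09660 had 12.4, 12 and 9.63 RPKM in wild type, 2.71, 1.63 and 1.54 in EM1084, and 2.62, 3.33 and 3.21 in complemented seeds. The lines overlapped at both loci, and no run of 3 members with at most 2 loci between them was found. Of 86 directly neighbouring loci that were tested and are not members, 10 were called lower and 58 higher than wild type in EM1084, and 10 and 55 in complemented seeds. On the deposited scale most of these neighbours were thus called in the direction opposite to the members, as were 82.7% of all loci tested in EM1084 and 72% in complemented seeds. The share of all loci tested that was called lower was 5.33% in EM1084 and 7.37% in complemented seeds. Whether the neighbours differ from all loci was not tested.

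Member transcripts ranged from 251 to 3720 bases, with a median of 1276 against 1573 over all loci with at least 10 RPKM in wild type. The plus strand held 51 of the 83. The values rested on a median of 1475 reads over the 3 wild type libraries and, likewise, 1475 reads over the 6 libraries of the lines. In at least 1 library of a line, 6 members had fewer than 30 reads, and their ratios are the least precise.

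At 6 members another locus of the table overlapped, and the strand setting of the authors' counting is not stated, so reads in the shared stretch cannot be divided between them. The clearest case was LOC_Os06g48355 (chromosome 6, 29235212 to 29236564, minus strand), picked out after its values were seen. It had 18.1, 21.3 and 10.6 RPKM in wild type, 7.45, 6.97 and 9.5 in EM1084, and 6.31, 7.61 and 0 in complemented seeds. The last value stood beside 154 and 190 reads in the other complemented libraries. LOC_Os06g48350, on the same strand and over the same stretch, had 18.8, 21.4 and 23.4 RPKM in wild type, 57.5, 51.2 and 59.1 in EM1084, and 44.1, 44 and 49.6 in complemented seeds. The member was lower and its partner higher in both lines, and the member was not called in EM1084.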

How the data were processed

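The authors deposited 1 table of RPKM values for 31263 loci and 9 libraries of total RNA (ScriptSeq v2, per the labels). No label or header names the aligner, counter, strand setting, genome build or annotation. Group means of the deposited RPKM chose the members. The members and the gene lists were chosen with earlier results of these data known. All 281367 values stepped in whole reads within a tolerance of 0.001, which gave the smallest mapped totals and read counts that fit; as no molecular identifiers were used, reads need not be independent molecules.

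Loci reaching 1 RPKM in 3 or more libraries (15450) were fitted as log2(RPKM + 1) with limma 3.58.1 (trend, robust) in R 4.3.3, 9 libraries in 1 fit, two-sided, with Benjamini-Hochberg adjustment over all loci tested; fold changes on this scale understate those of low loci. The steps were tested on simulated data, in which the genotypes differed only at a small set of loci. Those data had no shift over most loci, so they do not check the choice of scaling. Other scalings used the median of ratios over 15490 loci with every value above 0, quantile normalization, and the total without 176 loci. Those were the listed glutelins, prolamins and globulins and every locus in the prolamin stretches left out by identifier, whatever it encodes. What remains is the total outside storage protein loci.

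Named members were the 10 highest in wild type, the 10 lowest in the lines, those on lists or in runs of at least 3, the 3 nearest each threshold, and the extremes of the ratio between the lines. Names of listed loci come from general knowledge of the rice literature. The RefSeq gene table (39387 genes) matched 0 loci, so no sequence is printed. Figures used Python 3.11.15 and matplotlib 3.10.9.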

Additional observations from a re-analysis of the deposited data

How the results depend on the processing

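The number of members depended on the thresholds and most of all on the scaling. With a stricter and a looser limit on the share of wild type it was 39 (0.333) and 158 (0.667), against 83 (0.5), and it was 666 under the median of ratios, 405 under quantile normalization and 199 with the total outside storage protein loci. Of the 83, 74, 71 and 75 were among the members under these 3 scalings. A wild type minimum of 5 or 20 RPKM, a ratio of 1.5 between the lines and group medians gave 118, 65, 73 and 92. Leaving out each library in turn gave 78 to 90 members; 65 of the 83 were kept each time and 18 were lost at least once, 9 of them without WT 1. Without WT 3 the members lost were LOC_Os01g64370, LOC_Os03g57990 and LOC_Os09g00999.

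Over all loci, the median of ratios, quantile normalization and the total outside storage loci gave, in this order, 4165, 4117 and 1832 called lower in EM1084 than wild type (823 as deposited), and 3945, 3830 and 1901 in the complemented line (1139). For the complemented line against EM1084 they gave 2822, 2887 and 3539 called lower (7006) and 2783, 2968 and 2405 higher (1573). Members called lower in that comparison were 7, 8 and 10 (24 as deposited), and higher 36, 39 and 31 (18). The cause was not tested. Members called lower than wild type stayed between 80 and 83 under all planned scalings, pseudocounts and filters, in either line. The same libraries were used to choose the members, so this stability follows largely from the choice. No count moved by over 1.5 times with a pseudocount of 0.1 or 5 or with no filter.

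Leaving out each library gave 79 to 82 members called lower than wild type in EM1084 and 79 to 82 in the complemented line, with 773 to 833 and 1023 to 1162 over all loci. Against EM1084, 18 to 25 members were called lower and 13 to 20 higher in the complemented line, with 6041 to 7358 and 1358 to 1652 over all loci. The 36 members tracked singly kept all 1152 differences from wild type below 0, from -7.36 to -0.54 on the log2 scale. As members were chosen for low values in these libraries, these signs and the member counts against wild type are no independent check.

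Libraries with the same replicate number did not deviate together (correlation of residuals -0.03 to 0.06 over 9 pairs), so the numbers were not taken as a pairing. With the replicate block, 80 members were called lower in EM1084 and 80 in the complemented line than in wild type (816 and 1126 loci in all), and 22 members lower and 17 higher in the complemented line than in EM1084 (6850 and 1545 in all). Among loci with at least 10 RPKM in wild type, 7.23% of members were next to another, against 4.82% in the whole table. Depth limits the 6 members with under 30 reads in a library of a line.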
